A study of Mus musculus with 15 samples.

Results

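The genes described are the Notch receptors Notch1, Notch2 and Notch3, the ligands Jag1, Jag2, Dll1 and Dll4, and the target genes Hes1, Hey1 and Heyl. They were found by the gene name that the scanner files give for each probe, which yielded 10 of 27343 named genes and 15 of 41174 probes. Notch2 had 3 probes, Notch1, Jag1 and Heyl had 2 each, and the other 6 genes had 1. RNA was measured on 15 Agilent 1-colour mouse arrays: 7 of mHep, 7 of eHep and 1 of primary hepatocytes. eHep are expandable hepatocytes from mouse liver grown in expansion medium, and mHep, a name that the labels do not spell out, was taken to mean the same cells in differentiation medium. All cultured cells had been kept for 21 days. The cultures came from 3 mice, named 129S1-No1 (strain 129S1; 3 mHep and 3 eHep arrays), C57B6-No1 (strain C57B6; 3 and 3) and 129S1-No2 (strain 129S1; 1 and 1). The primary hepatocytes came from C57B6 mice and were isolated by collagenase perfusion, with no culture step named.

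For 129S1-No2, the source name of the mHep array reads eHep, and its title decided its group. The labels do not say whether the arrays of a mouse came from separate cultures, so p-values within a mouse measure only the spread between its arrays, which may be technical. The share of probes well above background ranged between 48.8% and 61.9% over the cultures and was 36.3% for the primary cells. Of 10 hepatocyte markers, 9 to 10 passed that mark on each mHep array, 3 to 7 on each eHep array and 10 on the primary array. Alb passed it on 15 of 15 arrays. All 3 mHep arrays of 129S1-No1 lay on 1 slide and all 3 of its eHep arrays on another, so slide and medium cannot be told apart within that mouse.

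Notch receptors are membrane proteins that are cut after they bind a Jagged or Delta-like ligand on a neighbouring cell. The released intracellular part enters the nucleus, joins the DNA-binding protein encoded by Rbpj and turns on genes such as those of the Hes and Hey families, which encode transcriptional repressors. In the liver this pathway is best known for steering progenitor cells towards the bile duct lineage, with Jag1 and Notch2 as the ligand and receptor whose loss causes bile duct paucity in people.

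The probes are 60 bases long and carry mm9 positions in the files. The sequences of the Hes1 probe and of the fainter Jag1 probe are shown because both lie in coding sequence and because Hes1 is the target measured on every culture and Jag1 the one member called against primary cells. The Hes1 probe (plus strand) spans 296 bases of genome, chr16:30065983-30066278, so it joins exons. The Jag1 probe lies at chr2:136908942-136909001 on the minus strand, 1449 bases upstream of the brighter Jag1 probe at chr2:136907433-136907492 in the direction of transcription. Both are written 5′ to 3′, and no letter is singled out.
Hes1 probe: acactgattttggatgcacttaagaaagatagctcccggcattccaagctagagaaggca
Jag1 upstream probe: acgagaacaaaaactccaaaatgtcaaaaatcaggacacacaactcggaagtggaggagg

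Levels are given as log2 of the scanner's processed signal minus the 75th percentile of the same array, so 0 is that percentile's signal. Where a gene had several probes, the one with the highest mean was used. A reading that the scanner software did not mark as well above background is called dark. Levels of different genes come from different probes and are not compared with each other. Notch1, Notch2, Jag1 and Hes1 were well above background on all 14 cultured arrays. Jag2 reached that mark on 4 of 7 mHep and 7 of 7 eHep arrays, Dll1 on 7 mHep and 2 eHep arrays, Notch3 on 3 and 5, Hey1 on 0 and 4, and Dll4 on 3 and 3. The Heyl probe used did so on none. On the primary array the probes of Notch1 and Notch2 were well above background and those of the other 8 genes were not. In these bulk samples fewer cells of a type and less RNA per cell cannot be told apart.

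**Figure D1:**
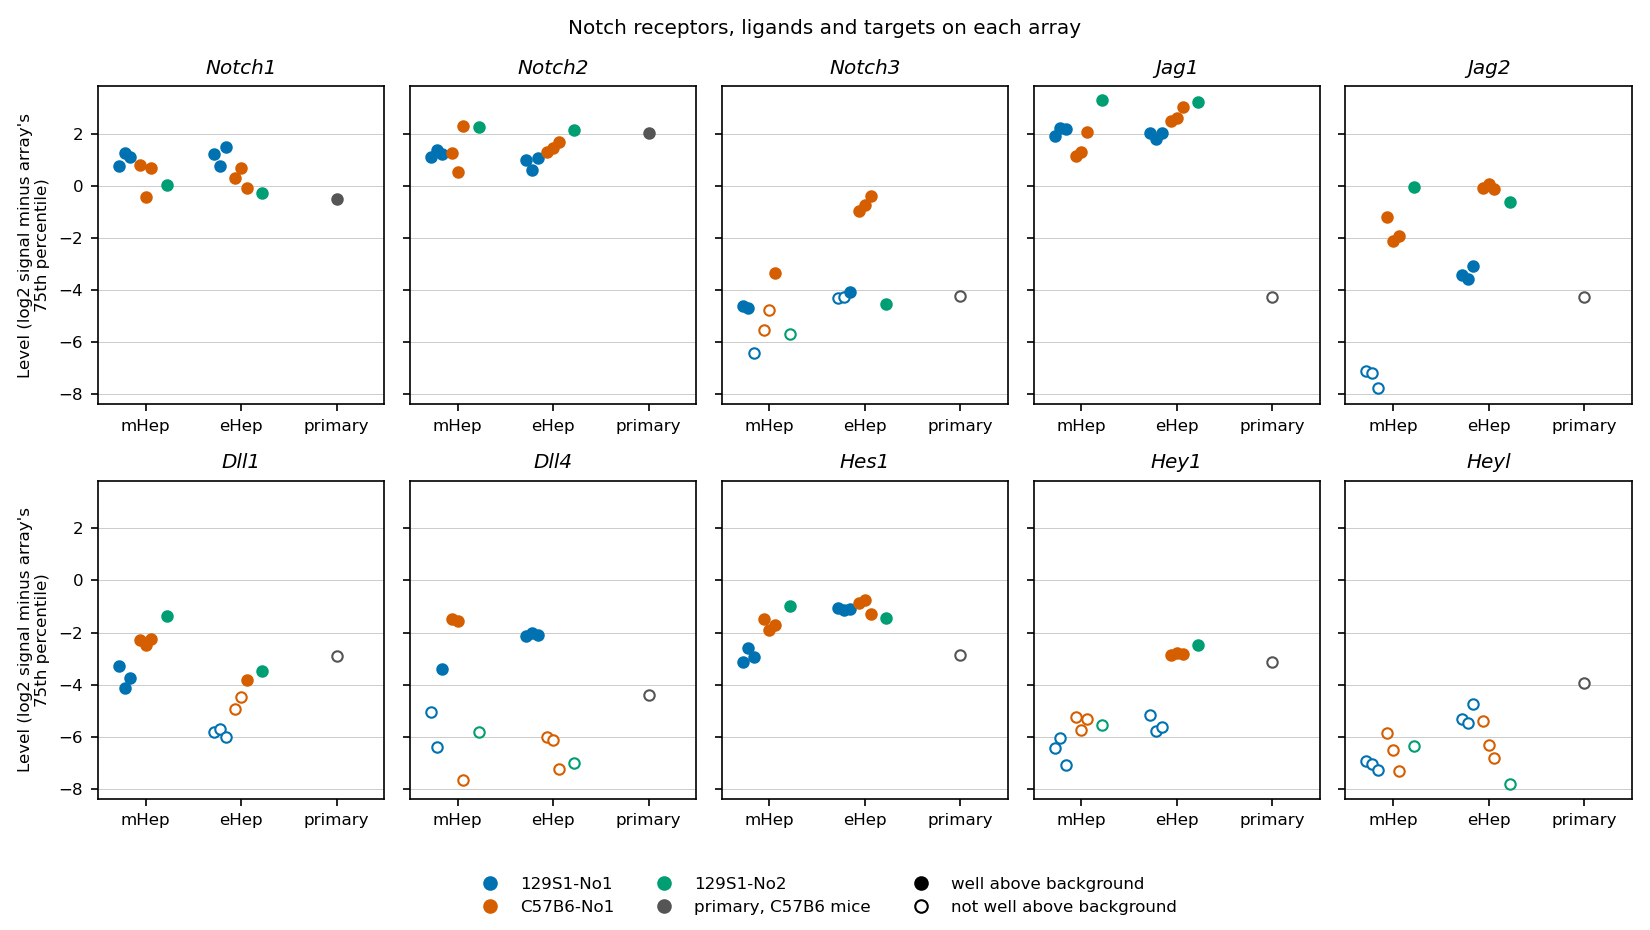
Level of each gene (vertical axis, log2 signal minus the array's 75th percentile) on each array, grouped as mHep, eHep and primary (horizontal axis). Each point is 1 array, coloured by mouse and open where the probe was not well above background: Dll1 is filled on 7 of 7 mHep and 2 of 7 eHep arrays, Hey1 is open on all 7 mHep arrays, and Notch3 is high on the 3 eHep arrays of C57B6-No1, between -0.96 and -0.41.

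Over the 3 mice, none of the 8 genes tested passed the threshold between mHep and eHep in limma (adjusted p under 0.05 over 14596 genes), while 1.83% of all genes tested did (1.38% higher and 0.452% lower in mHep). Dll4 and Heyl were too dim to be tested. 3 of the 8 had an unadjusted p under 0.05: Dll1, which was higher in mHep, and Hey1 and Notch3, which were lower. Each of them was tested only because it was bright enough in the medium where it was higher, mHep for Dll1 and eHep for the other two, so the filter favoured these directions. The median difference of the 8 was -0.51, beside -0.10 over all genes tested. Median scaling, no filter on dim probes and a stricter filter each called 1 of the 8, Dll1, with adjusted p between 0.0311 and 0.0443. With the 14 arrays entered as samples and the mouse as a term, 5 were called in limma, beside 34.4% of all genes tested.

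Among the receptors, Notch1 is the broadly expressed founding member of the family. Notch1 levels on the mHep arrays were between -0.43 and 1.24 (median 0.74), and those on the eHep arrays between -0.26 and 1.47 (median 0.66). The groups overlapped almost fully, and the mean over mice was 0.47 ± 0.51 in mHep and 0.39 ± 0.71 in eHep (SD, n = 3 each). The difference was 0.08 ± 0.37 (SE, limma adjusted p = 0.952), and it was not called within 129S1-No1 or within C57B6-No1 either. The other Notch1 probe gave 0.04 (limma adjusted p = 0.98 over probes).

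Notch2, the receptor most closely tied to bile duct formation, had levels between 0.54 and 2.29 on the mHep arrays (median 1.26) and between 0.59 and 2.14 on the eHep arrays (median 1.30). Its mean was 1.62 ± 0.56 in mHep and 1.5 ± 0.63 in eHep (SD, n = 3 each), and the difference was 0.12 ± 0.38 (SE, limma adjusted p = 0.924). In both media the 129S1-No1 mean was the lowest of the 3 mice, at 1.23 in mHep and 0.88 in eHep, and the 129S1-No2 value was the highest, at 2.26 and 2.14. The other 2 Notch2 probes gave differences of -0.15 and -0.14, and neither was called. The 3 probes thus differed in sign, within their standard errors of 0.38 to 0.41.

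Notch3 marks smooth muscle and pericytes in many tissues. In C57B6-No1 it measured -5.55, -4.78 and -3.35 on the mHep arrays, against -0.96, -0.75 and -0.41 on the eHep arrays. All 3 eHep arrays were high and well above background, and only the highest mHep array was. Within C57B6-No1 Notch3 fell in mHep by 3.85 on the log2 scale, a 14.4-fold difference (limma adjusted p = 0.000569), with 2 of the 3 mHep readings not well above background. Those 2, -5.55 and -4.78, lay below the background limits of their arrays, -3.73 and -4.47. The size of the fall is therefore set in part by background.

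In 129S1-No1 Notch3 measured -4.61, -4.68 and -6.41 in mHep, against -4.30, -4.28 and -4.08 in eHep, with 3 of these 6 readings not well above background. With dark readings in both media the groups have no order, and the difference of -1.02 was not called (limma adjusted p = 0.151). In 129S1-No2 it measured -5.68 in mHep, not well above background, and -4.54 in eHep. On the C57B6-No1 arrays the summed level of 11 mural and stellate markers was 14.8 to 34.3 in mHep, against 19.5 to 39 in eHep, and 4 were well above background on each mHep array, against 4 to 6 in eHep. Their part in the Notch3 difference was not tested. With the 3 mice together the difference was -2.0 ± 0.65 (SE, limma adjusted p = 0.227). The change in 129S1-No1 exceeded that in C57B6-No1 by 2.84 ± 0.79 (SE, limma adjusted p = 0.0338), a call that 10 of 12 single-array omissions ended, with adjusted p up to 0.0827 without mHep replicate 1 of 129S1-No1.

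Of the ligands, Jag1 was the one seen on every cultured array. Jag1 measured 1.91, 2.22 and 2.18 in mHep of 129S1-No1, against 2.04, 1.81 and 2.01 in its eHep. These arrays overlapped, and the difference of 0.15 was not called (limma adjusted p = 0.638). In C57B6-No1 it measured 1.15, 1.31 and 2.06 in mHep, against 2.5, 2.59 and 3.00 in eHep, with no overlap. There it fell in mHep by 1.19 on the log2 scale, or 2.28-fold (limma adjusted p = 0.00593). With slide as a block the difference was -0.95 and the call was lost, in a fit that rests on 1 array per medium of this mouse. 129S1-No2 had 3.27 in mHep and 3.22 in eHep. Over the 3 mice the means were 2.29 ± 0.90 in mHep and 2.62 ± 0.64 in eHep (SD, n = 3 each), and the difference of -0.33 was not called (limma adjusted p = 0.794).

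The upstream Jag1 probe, whose sequence is shown above, was fainter and also well above background on all 14 cultured arrays. Its levels were between -3.76 and -2.50 in mHep (median -3.15) and between -2.83 and -2.26 in eHep (median -2.64). Within C57B6-No1 its difference was -0.99 (limma adjusted p = 0.00687 over 22228 probes), and within 129S1-No1 it was -0.20 (adjusted p = 0.451). The change in 129S1-No1 minus that in C57B6-No1 was 1.34 ± 0.36 for the brighter probe (SE, limma adjusted p = 0.0304). For the upstream probe it was 0.79 and was not called (limma adjusted p = 0.104).

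**Figure D2:**
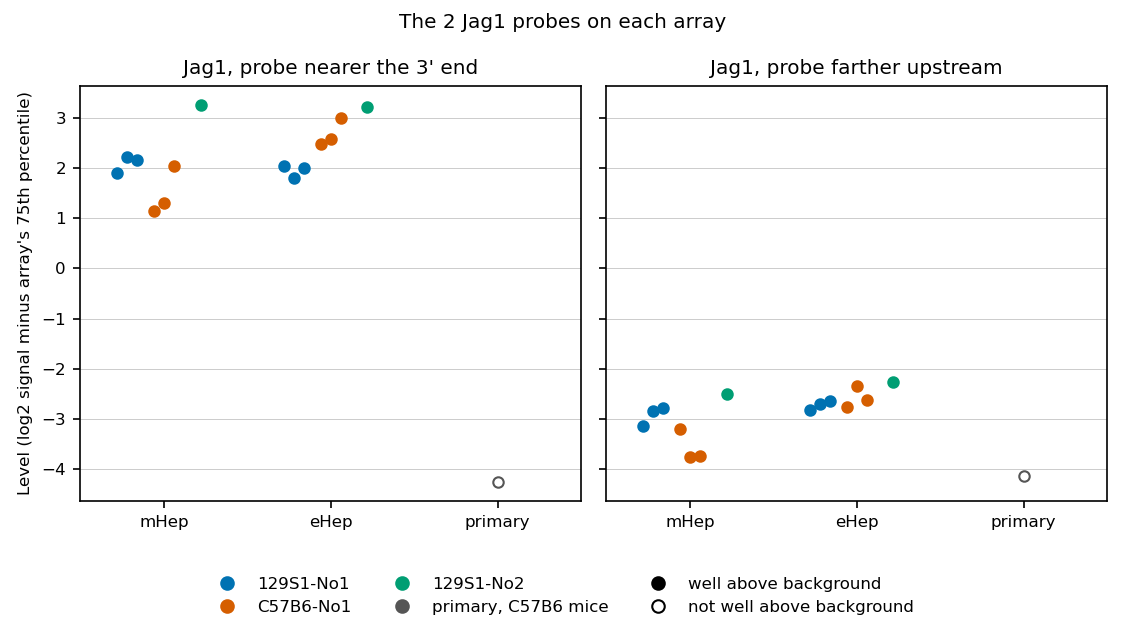
Level of the 2 Jag1 probes (vertical axis, log2 signal minus the array's 75th percentile) on the mHep, eHep and primary arrays (horizontal axis); each point is 1 array, coloured by mouse and open where not well above background. Both probes are open at about the same level on the primary array, -4.26 and -4.14, while the cultured arrays lie between 1.15 and 3.27 on the probe nearer the 3′ end and between -3.76 and -2.26 on the upstream probe.

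Jag2, the other Jagged ligand, had no common direction over the 3 mice. In 129S1-No1 it measured -7.10, -7.19 and -7.76 in mHep, none well above background, against -3.43, -3.58 and -3.06 in eHep, all well above background. Within that mouse Jag2 was at least 3.34-fold lower in mHep (limma adjusted p = 3.02e-06), which is a bound because the mHep readings are set by background. In C57B6-No1 it measured -1.22, -2.12 and -1.92 in mHep, against -0.08, 0.08 and -0.14 in eHep, all well above background and without overlap. There it fell by 1.71 on the log2 scale, or 3.26-fold (limma adjusted p = 0.00113). 129S1-No2 ran the other way, with -0.04 in mHep and -0.64 in eHep. Over the 3 mice the means were -3.05 ± 3.82 in mHep and -1.35 ± 1.77 in eHep (SD, n = 3 each), and the difference of -1.70 was not called (limma adjusted p = 0.421). Without 129S1-No2 it was -2.85 and was called (limma adjusted p = 0.0289). Both sizes are set in part by the dark mHep readings of 129S1-No1.

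Dll1, a Delta-like ligand, was well above background on every mHep array and on few eHep arrays. In 129S1-No1 it measured -3.28, -4.15 and -3.74 in mHep, all well above background, against -5.82, -5.69 and -6.01 in eHep, none well above background. In C57B6-No1 the levels were -2.28, -2.49 and -2.26 in mHep, against -4.93, -4.48 and -3.82 in eHep, of which only the last was well above background. In 129S1-No2 they were -1.36 in mHep and -3.47 in eHep. In C57B6-No1 and 129S1-No2 every mHep reading lay above every eHep reading of that mouse. In 129S1-No1 the eHep readings are bounded only by the background limits of their arrays, between -4.29 and -3.76, which overlap the mHep readings.

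The Dll1 difference was 2.12 in 129S1-No1 and 2.06 in C57B6-No1, and 129S1-No2 gave 2.11, with that of 129S1-No1 set against dark readings. Within 129S1-No1 Dll1 was at least 1.23-fold higher in mHep (limma adjusted p = 0.00033), and within C57B6-No1 it was 4.18-fold higher (limma adjusted p = 0.000566). Leaving out any 1 of the 12 arrays kept both calls. Over the 3 mice the estimate was 2.10 ± 0.37 (SE), higher in 3 of 3 mice (in 129S1-No1 as a bound), and it missed the threshold (limma adjusted p = 0.0575). Without 129S1-No1 it passed (2.08, limma adjusted p = 0.0372). With dark readings raised to the background limit of their array the difference within 129S1-No1 was 0.30 and was not called (limma adjusted p = 0.369), and that within C57B6-No1 was 1.89 (limma adjusted p = 0.000482). The change in 129S1-No1 minus that in C57B6-No1 was then -1.59 and was called (limma adjusted p = 0.0182), against 0.06 on the readings as measured (limma adjusted p = 0.934). The Dll1 probe is printed 10 times on each array, and its spots were averaged.

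Dll4, a ligand best known from endothelial cells, was well above background on 6 arrays and was not tested. In 129S1-No1 it measured -5.05, -6.38 and -3.42 in mHep, of which only the last was well above background, against -2.15, -2.01 and -2.09 in eHep, all well above background. In C57B6-No1 it measured -1.47, -1.54 and -7.66 in mHep, with the first and second well above background, against -5.99, -6.10 and -7.23 in eHep, none of them. Both arrays of 129S1-No2 were dark. The 2 mice thus differed in which medium held the bright readings, a difference that was not tested.

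All 6 bright Dll4 readings fell among the 10 arrays of the later scan and none among the 5 of the earlier scan. The earlier scan held the dark mHep array of C57B6-No1, both arrays of 129S1-No2 and the primary array. Of 11 endothelial markers, 2 to 3 were well above background on mHep arrays, 3 to 6 on eHep arrays and 4 on the primary array. Their summed level (linear, relative to the array's 75th percentile) was 0.24 to 0.79 in mHep, 0.291 to 2.59 in eHep and 4.53 in primary cells. The 3 eHep arrays of 129S1-No1 had the highest sums of the cultured arrays, 2.22 to 2.59. Most of each of these sums came from 1 marker, Esam, at log2 levels of 0.74, 0.61 and 0.91. On these arrays 3 to 4 of the 11 markers were well above background. The 2 mHep arrays of C57B6-No1 with bright Dll4 had sums of 0.79 and 0.486. The defining endothelial marker Pecam1 was not well above background on any array, and neither was Pdgfrb, which marks mural cells. The part of scan and of other cells in the Dll4 readings was not tested.

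Of the targets, neither of those tested was called over the 3 mice. Hes1, a repressor that answers directly to Notch in many cell types, measured -3.14, -2.58 and -2.94 in mHep of 129S1-No1, against -1.06, -1.12 and -1.08 in its eHep. The groups did not overlap, and Hes1 fell by 1.80 on the log2 scale, or 3.48-fold (limma adjusted p = 0.000125). In C57B6-No1 it measured -1.48, -1.92 and -1.72 in mHep, against -0.88, -0.76 and -1.28 in eHep, again without overlap. There it fell by 0.73, or 1.66-fold (limma adjusted p = 0.0304), a call that 6 of 12 single-array omissions ended, with adjusted p up to 0.114 without eHep replicate 2 of C57B6-No1. In 129S1-No2 Hes1 was higher in mHep, at -1.0 against -1.46 in eHep. Over the 3 mice the means were -1.87 ± 0.95 in mHep and -1.17 ± 0.25 in eHep (SD, n = 3 each), and the difference of -0.69 was not called (limma adjusted p = 0.609).

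Hey1, a repressor of the related Hey family, was not well above background on any mHep array, with levels between -7.10 and -5.25 (median -5.72). On the eHep arrays it was well above background on all 3 of C57B6-No1, at -2.85, -2.80 and -2.82, and on that of 129S1-No2, at -2.48. On the 3 eHep arrays of 129S1-No1 it was dark, at -5.18, -5.77 and -5.64. The eHep arrays therefore fell into a bright set from C57B6-No1 and 129S1-No2 and a dark set from 129S1-No1. Within C57B6-No1 Hey1 was at least 3.19-fold lower in mHep (limma adjusted p = 7.59e-05). Within 129S1-No1 the fit gave -0.99 (limma adjusted p = 0.0156), but all 6 readings were below the mark, so no fold is given, and the call was lost without eHep replicate 1 or mHep replicate 3 of that mouse (limma adjusted p = 0.067 and 0.0683).

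Averaged over mice, Hey1 was at least 2.5-fold lower in mHep and was not called (-2.21 ± 0.52 on the log2 scale, SE, limma adjusted p = 0.115). C57B6-No1 and 129S1-No2 gave this direction, and the dark readings of 129S1-No1 gave none. Without 129S1-No1 it was called (-2.82, limma adjusted p = 0.0124). Heyl, the third target, gave no measured level on the probe used, whose 15 readings were all dark. Its other probe was well above background only on mHep replicate 3 of 129S1-No1, at -4.54.

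**Figure D3:**
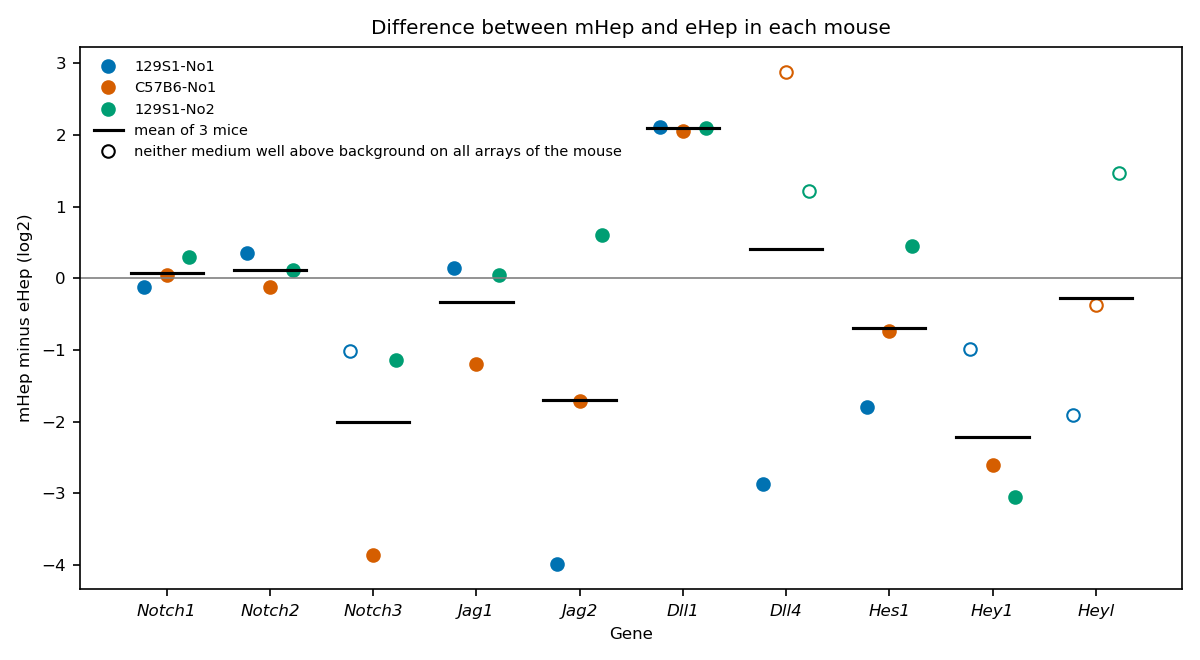
Difference between mHep and eHep (vertical axis, log2 mHep minus eHep of the array means) for each gene (horizontal axis) in each of 3 mice, with a line at the mean of the mice and open points where neither medium cleared background on every array of the mouse. The 3 points of Dll1 lie between 2.06 and 2.12, that of 129S1-No1 against dark eHep readings, while those of Jag2 run between -3.99 and 0.60.

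Within the mice, 4 of the 8 genes tested were called in 129S1-No1, where 46.3% of all genes tested were (17.7% higher and 28.6% lower in mHep). In C57B6-No1 6 of 8 were called, where 26.7% of all genes were (12.3% higher and 14.4% lower). In 129S1-No1 Dll1 was higher in mHep, and Jag2, Hes1 and Hey1 were lower, the last on dark readings only. In C57B6-No1 Dll1 was higher and Notch3, Jag1, Jag2, Hes1 and Hey1 were lower. Notch1 and Notch2 were called in neither mouse. The median difference was -0.55 in 129S1-No1 and -0.96 in C57B6-No1, beside -0.37 and -0.09 over all genes tested. In C57B6-No1 the filter favoured the directions of Dll1, Notch3 and Hey1, which passed it only through the medium where they were higher. In 129S1-No1 it favoured that of Dll1. The counts and medians are not corrected for this. With normexp background correction no member was called in 129S1-No1 and 2 were called in C57B6-No1, Notch3 and Jag1. The shares of all genes tested were then 27.0% and 11.2%. With slide as a block 3 members were called in 129S1-No1 and 4 in C57B6-No1, beside 21.2% and 20.0% of all genes tested. The C57B6-No1 calls of Jag1 and Hes1 were lost there. In that fit the C57B6-No1 change rests on replicate 3 of each medium, its only mHep and eHep arrays on a shared slide. The 129S1-No1 change rests on a slide shift read from 1 C57B6-No1 eHep array on each of its slides. Fewer arrays and an effect of slide therefore cannot be told apart.

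The test of the difference between the changes called 5 of 8 genes, while 16.9% of all genes tested were called (6.17% with the higher value in 129S1-No1). Notch3, Jag1 and Hey1 had the higher value in 129S1-No1 (differences of 2.84, 1.34 and 1.61). Of these, all were called lower in mHep of C57B6-No1, and in 129S1-No1 Jag1 was at 0.15 and was not called. Jag2 and Hes1 had the lower value there (-2.29, limma adjusted p = 0.00364, and -1.07, limma adjusted p = 0.0402). Leaving out single arrays left between 1 and 5 genes called, beside 9.37% to 33.2% of all genes tested. The Jag2 call was kept in all 12 omissions (limma adjusted p up to 0.0135), while that of Hey1 was lost in 3 (up to 0.0555 without eHep replicate 3 of 129S1-No1), that of Jag1 in 7 and that of Hes1 in 8 (up to 0.0771 and 0.0984, both without mHep replicate 3 of 129S1-No1). For Jag2 and Hey1 these sizes rest on dark readings, and for Notch3 in part. Notch3 was well above background on 2 of 3 mHep and 1 of 3 eHep arrays of 129S1-No1. In C57B6-No1 it was so on 1 of 3 mHep arrays. With dark readings raised to the background limit the Jag2 difference was -0.03 and that of Hey1 0.60, and limma called neither (adjusted p = 0.958 and 0.401). With slide as a block none of the 5 was called in limma, beside 8.28% of all genes tested. The C57B6-No1 change then rests on 1 array per medium, so fewer arrays and an effect of slide cannot be told apart.

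C57B6-No1 had arrays in both scans, which allowed its change to be read within each. In the earlier scan, with 1 mHep and 1 eHep array on the same slide, the difference was -2.94 for Notch3, -0.95 for Jag1, -1.78 for Jag2, 1.56 for Dll1, -0.44 for Hes1 and -2.48 for Hey1. In the later scan, with 2 and 2 arrays, it was -4.31, -1.31, -1.67, 2.32, -0.88 and -2.66 in the same order. These 6 genes were called on the same arrays, so their shared sign is no separate support. Of those not called, Notch1 gave 0.76 (earlier) and -0.30 (later), Notch2 0.61 and -0.48, and the untested Dll4 -0.43 and 4.54.

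Against the primary array, Jag1 was the only member called. It was well above background on all 14 cultured arrays and dark on the primary array, at -4.26. The level in mHep was at least 21.2-fold that in primary cells (limma adjusted p = 0.00653), and the level in eHep at least 26.7-fold (limma adjusted p = 0.00473). Both comparisons share 1 primary array, which was assumed to vary like the cultured means. Jag1 was tested there only because it was bright in the cultures, so the filter favoured this direction. The share of all genes tested that were called at the same threshold, with a log2 difference of at least 1, was 9.99% for mHep (4.02% higher and 5.97% lower) and 15% for eHep (5.61% higher and 9.4% lower). Jag1 was higher than in primary cells in 3 of 3 mice in both media. The mHep call was lost without C57B6-No1 (limma adjusted p = 0.0595) and with normexp background correction (limma adjusted p = 0.0547).

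The upstream Jag1 probe gave smaller differences from the primary array, 1.14 in mHep (limma adjusted p = 0.278) and 1.62 in eHep (limma adjusted p = 0.13), and was not called in either. That probe too was dark on the primary array, at -4.14. The lowest signal well above background on that array corresponds to -2.12. All cultured readings of the upstream probe, between -3.76 and -2.26, lay below this limit. Its differences from primary cells therefore have no order and cannot be read as a smaller rise. The same limit lies above most cultured readings of Notch3, Dll1, Dll4 and Hey1, so no fold against primary cells is given for these genes.

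Hes1 was well above background in the cultures and dark on the primary array. It was at least 1.19-fold higher in mHep and at least 1.92-fold higher in eHep, and neither difference was called (limma adjusted p = 0.452 and 0.202). The sign was shared by 2 of 3 mice in mHep and 3 of 3 in eHep. Jag2 was at least 1.70-fold higher in eHep and was not called (limma adjusted p = 0.512). Notch1 was at -0.50 on the primary array, and the difference was 0.96 ± 0.73 for mHep and 0.88 ± 0.73 for eHep (SE, limma adjusted p = 0.428 and 0.462). Notch2 was at 2.01 on the primary array, with differences of -0.39 for mHep and -0.51 for eHep (limma adjusted p = 0.762 and 0.683). In the C57B6-No1 arrays alone, the strain of the primary cells, limma called 3 members for mHep and 4 for eHep, beside 26.7% and 32.7% of all genes tested. The median of all genes against primary cells moved with the scaling (-0.34 for mHep and -0.19 for eHep here, 0.23 and 0.32 with quantile normalization). The sign of Jag1 was the same in every setting tried, with values between 3.19 and 9.10 for mHep and between 3.61 and 9.43 for eHep.

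Hepatocyte markers differed between the groups, and the biliary sum had no common direction between mHep and eHep over the mice. The summed level of 11 biliary and progenitor markers was 210 to 940 on the mHep arrays, 313 to 656 on the eHep arrays and 16.4 on the primary array. Between 9 and 10 of them were well above background in mHep, 8 to 10 in eHep and 4 in primary cells. Krt19, a bile duct keratin, was dark on the primary array, and Sox9 was well above background on all 15 arrays. In each of the 3 mice every mHep reading of Sox9 lay below every eHep reading, at 0.63 against 1.83 in 129S1-No2. Onecut1, of the same list, ran the other way in each mouse, at 1.67 against 1.52 in 129S1-No2. The linear sum follows its brightest markers, and differences of single markers were not tested. The summed level of 10 hepatocyte markers was 270 to 1770 in mHep, 1.54 to 8.66 in eHep and 11300 in primary cells. In 129S1-No1 the biliary sum was 210 to 270 in mHep, against 567 to 656 in eHep. In C57B6-No1 it was 604 to 940 in mHep, against 350 to 533 in eHep, and in 129S1-No2 it was 546 in mHep, against 313 in eHep. Of 11 mural and stellate markers, 2 to 4 were well above background in mHep, 2 to 6 in eHep and 2 in primary cells, with sums of 14.8 to 34.3, 15.7 to 39 and 26, and Acta2 was so on all 15 arrays. Of 10 macrophage and leukocyte markers, 3 to 5 were in mHep, 3 to 6 in eHep and 7 in primary cells, with sums of 0.409 to 1.46, 0.24 to 4.06 and 11.6. Adgre1 was well above background only on the primary array and Ptprc only on mHep replicate 3 of C57B6-No1. The part of these cells in the Notch results was not tested.

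Other genes of the pathway were read from a list of 66, of which 64 were on the array and 51 were tested. The list covers further receptors and ligands, glycosylation and trafficking, receptor cleavage, nuclear partners and other targets. Between mHep and eHep over the 3 mice limma called 0 of 51, and 5 had an unadjusted p under 0.05. The median was -0.07, beside -0.10 over all genes tested. With the 14 arrays as samples limma called 17 of 51, near the 34.4% of all genes called there.

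Within 129S1-No1 10 of 51 were called higher in mHep and 14 lower, near the 17.7% and 28.6% of all genes tested, and the list median of -0.53 stood beside -0.37 over all genes tested. The largest falls were in Nrarp, a feedback inhibitor that Notch itself induces, which was at least 7.82-fold lower (limma adjusted p = 0.00072) and dark on all mHep arrays, and in Id3, a helix-loop-helix inhibitor, which fell 19.7-fold (limma adjusted p = 0.000351). Neurl1b, a ubiquitin ligase for Notch ligands, fell 4.76-fold, and Maml2, a coactivator of the Notch complex, fell 3.74-fold. Kat2b, an acetyltransferase, rose 3.75-fold, Mib1, the ligase that activates ligands, 3.57-fold, Eps15, an endocytic adaptor, 3.36-fold, and Itch, a ligase, 2.93-fold.

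Within C57B6-No1 5 of 51 were called higher and 4 lower, beside 12.3% and 14.4% of all genes tested, with a median of -0.06, beside -0.09 over all genes tested. Dtx1, of the Deltex family, was at least 5.59-fold higher in mHep and dark on all 3 eHep arrays (limma adjusted p = 7.6e-05). Neurl1b rose 3.81-fold, Kat2b 2.99-fold and Pofut1, which adds O-fucose to Notch receptors, 2.43-fold. Gata3 fell 2.98-fold, Rbpj 2.89-fold, the corepressor Ctbp2 1.71-fold and Bhlhe40 1.70-fold. Kat2b was thus called higher in both mice, and Neurl1b lower in 129S1-No1 and higher in C57B6-No1.

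For 9 of the 51 the 2 changes were called different, near the 16.9% of all genes tested. Those with the lower value in 129S1-No1 were Dtx1 (-5.07), Neurl1b (-4.18), Nrarp (-4.16), Id3 (-3.60) and 3 others. Those with the higher value there were Rbpj (1.52, limma adjusted p = 0.0159) and Maml1 (1.14, limma adjusted p = 0.0349).

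**Figure D4:**
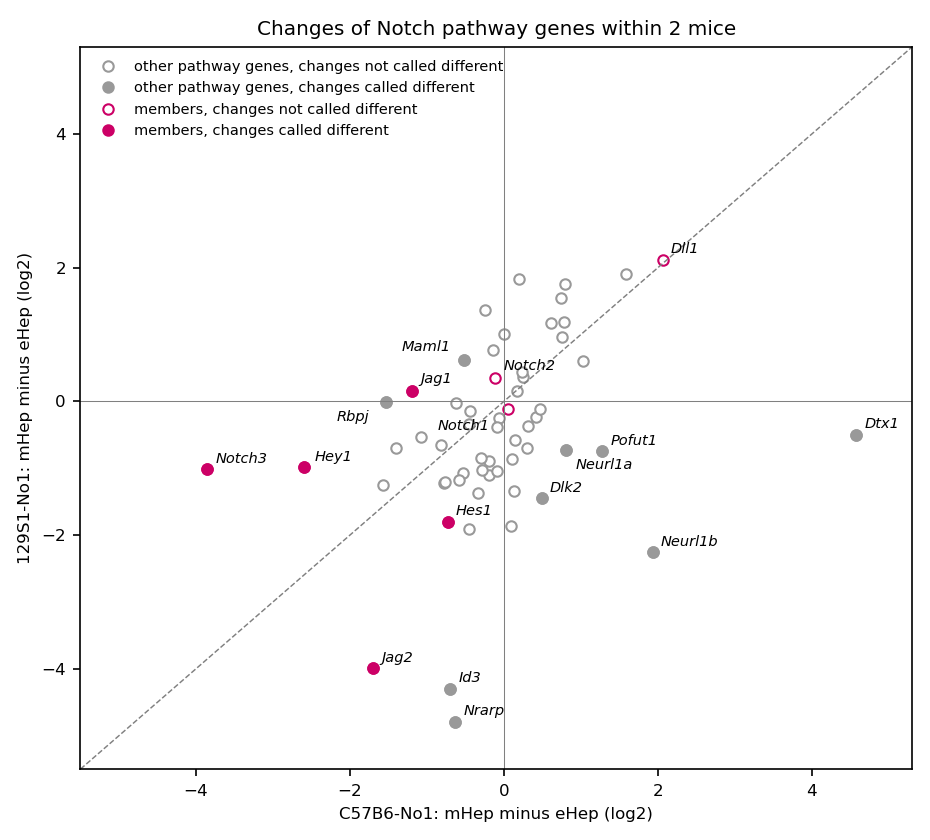
Difference between mHep and eHep (log2) within 129S1-No1 (vertical axis) and within C57B6-No1 (horizontal axis) for 8 members and 51 other pathway genes that were tested. Each point is 1 gene, filled where the change was called different between the mice, and the dashed line marks equal changes: Dll1 lies near it at 2.12 and 2.06, the first against dark eHep readings, Jag2, Nrarp and Id3 lie below it, and Notch3 and Hey1 above it.

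Against the primary array, 3 of the 51 were called higher and 2 lower in each medium, beside 9.99% of all genes tested called in either direction for mHep and 15% for eHep, so the list did not exceed the background. Ctbp2 was at least 26.1-fold higher in mHep and at least 44.5-fold higher in eHep, and Dtx3 at least 2.78-fold and at least 4.73-fold. Aak1, a kinase of endocytic adaptors, was 5.67-fold higher in mHep, and Rbpj at least 4.32-fold higher in eHep (limma adjusted p = 0.0329 and 0.0211). Ctbp2, Dtx3 and Rbpj were dark on the primary array and were tested only through the cultures, so the filter favoured their direction. Psen2, a catalytic subunit of gamma-secretase, was 88.7-fold lower in mHep (limma adjusted p = 0.00749) and 71.2-fold lower in eHep (limma adjusted p = 0.00685). Furin, a protease that cuts the Notch precursor, was 5.08-fold lower in mHep and 6.81-fold lower in eHep.

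The genes whose levels were most like those of each member were taken from 12445 named genes by Pearson's r over 7 means (3 mHep, 3 eHep and 1 primary), which share arrays and scaling. For Jag1 they were Mlxip (r = 0.997), Grb10 and Abcc5, for Jag2 Mcu (0.982), Obsl1 and Aplf, and for Dll1 Cdon (0.968), Rbl2 and Pdcd6ip. For Hes1 they were Slc1a5 (0.984), Vasp and Car12, and for Hey1 Ccnk (0.971), Sh3bgrl2 and Slc4a11. For Notch1 they were Tpd52l2 (0.982), Ttf1 and Phactr2, for Notch2 Mknk1 (0.988), Gab1 and Tbc1d5, and for Notch3 Spg11 (0.987), Prrx2 and Tmem179. Among the members, the highest r was 0.83, between Jag2 and Hes1, and the lowest -0.88, between Notch1 and Notch2. The genes named are the highest of 12445 over only 7 means, so high r values are favoured by the selection and were not tested. The means of every tested member except Notch1 and Notch2 include dark readings, for Jag1 and Hes1 on the primary array only.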

How the data were processed

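Per the file headers, Agilent Feature Extraction (10.7.3.1 for some arrays, 10.7.1.1 for the rest, under protocol GE1_107_Sep09) made the deposited Cy3 files, which place probes in mm9. The intensity used, the processed signal, is background-subtracted per the file headers and not scaled between arrays. The processed values deposited by the authors are log2 values with a median of 4.919 on every array; their normalization is not stated, and they tracked the log2 processed signals with r between 0.972 and 0.9999. They served as an alternative.

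Spots of a probe were averaged, leaving out flagged spots, log2 signals were centred on each array's 75th percentile, and 1 probe per gene (highest mean) was used. Probes were named by RefSeq accession (27668), by symbol (5589), by older symbol (471) or as in the file (7446). No probe was saturated. limma 3.58.1 (R 4.3.3, with version 1.17.8 of data.table) was fitted on all genes tested, with Benjamini-Hochberg adjustment over them and a threshold of 0.05. Tested genes had a probe that cleared the scanner's well-above-background mark on every array of 2 or more of the 3 mice in mHep or in eHep, or, against primary cells, on that array. mHep against eHep used mouse means with mouse as a block, since each mouse gave both media; deviations of the same mouse correlated at 0.40, 0.56 and 0.54, and those of different mice at 0.01 at most. Changes within 129S1-No1 and C57B6-No1, and their difference, came from 1 fit of 12 arrays. Where a group was dark on every array, a fold is a bound: the bright group's mean against the dim group's readings raised to the lowest signal well above background on their array. The number of arrays limits the precision.

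Members, gene lists and tests were chosen with earlier results of these data known. The genes named are all 10 members, up to 4 listed pathway genes per direction and comparison among those called, the 3 genes most like each member and a defining marker of each cell type. The markers Onecut1 and Esam were added after their readings were seen. Alternatives were other background corrections, scalings, filters, probe rules, moderation, arrays as samples, slide and scan blocks, and leaving out mice or arrays. Fits were tested on simulated data. Figures used matplotlib in Python.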

Additional observations from a re-analysis of the deposited data

Results flagged for a closer look

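For 5 members the change between mHep and eHep differed between 129S1-No1 and C57B6-No1 in the test of the difference itself (limma, 3 arrays per mouse and medium). The change in 129S1-No1 minus that in C57B6-No1 was 2.84 for Notch3, 1.34 for Jag1, -2.29 for Jag2, -1.07 for Hes1 and 1.61 for Hey1. None of the 5 was called with slide as a block or with normexp background correction, beside 8.28% and 4.45% of all genes tested. With slide as a block the C57B6-No1 change rests on 1 array per medium, so that fit cannot tell fewer arrays from an effect of slide. Jag1 was called lower in mHep of C57B6-No1 and was at 0.15, not called, in 129S1-No1. In 129S1-No1 the mHep readings of Jag2 and all readings of Hey1 were dark, and with dark readings raised to the background limit these differences were -0.03 and 0.60 and were not called. The size for Notch3 also rests in part on dark readings, in 129S1-No1 and in mHep of C57B6-No1. These 2 mice are of different strains, and within 129S1-No1 slide and medium go together, so mouse, strain and slide cannot be told apart between them. The other 129S1 mouse, 129S1-No2, has 1 array per medium. Its changes were -1.14 for Notch3, 0.05 for Jag1, 0.60 for Jag2, 0.45 for Hes1 and -3.05 for Hey1. In the 20 groups of 4 to 10 samples examined, no array lay far enough from the others to pass Dixon's test.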

How the results depend on the processing

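Of 988 member values recomputed under other settings, 49 changed sign, 3 of them in values called before or after. Hey1 within 129S1-No1 gave 0.018 and the Jag2 difference of changes 0.93 with normexp background correction, and the Dll1 difference of changes was -1.59 with dark readings raised to the background limit; the cause was not tested. Between mHep and eHep 0 members and 0 genes of the pathway list were called. There 1 member was called with median scaling, with no filter and with the strict filter, beside 3.57%, 2.41% and 3.34% of all genes tested. With 14 arrays as samples 5 members and 17 list genes were called, beside 34.4% of all genes tested. These counts were 4 and 8 with slide as a block (20.6% of all genes) and 5 and 22 with scan as a block (42.3%). They were 3 and 1 in the earlier scan alone (10.4%) and 5 and 26 in the later scan alone (50.3%). Leaving out 1 mouse gave 0 to 2 members and 0 to 1 list genes, beside 3.51% to 5.69% of all genes tested. With no replicate block for the mouse, 0 members and 0 list genes were called, and 2 of all genes tested, against 267 with it. Against primary cells, where 1 member was called in each medium, normexp left 0 for mHep. C57B6-No1 arrays alone gave 3 for mHep and 4 for eHep, 15 arrays as samples gave 2 for eHep, and the earlier scan gave 2 for each. Leaving out a mouse gave 0 to 1 for mHep. With normexp 0 members were called within 129S1-No1, 2 within C57B6-No1 and 0 for the difference of the changes. The shares of all genes tested were 27.0%, 11.2% and 4.45%. That difference was called for 3 members with median scaling, the strict filter or trended robust moderation (15.6%, 16.9% and 16.8% of all genes tested). It was called for 2 with no filter (8.79%), for 0 with slide as a block (8.28%), and for 1 to 5 when 1 array was left out (9.37% to 33.2%). The replicate number within a mouse did not pair the arrays (deviations correlated between -0.20 and 0.68). As a replicate block it left 4, 6 and 5 members called, beside 58.6%, 32.0% and 28.2% of all genes tested.

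Over all genes tested, calls ranged between 2 and 7346 for mHep against eHep, between 102 and 8827 (mHep) and between 430 and 8498 (eHep) against primary cells, beside 1515 and 2276 as reported. Within 129S1-No1 they ranged between 3094 and 12342 beside 6761, within C57B6-No1 between 1629 and 5222 beside 3898, and for the difference between 649 and 4850 beside 2462. Signal over background limits Notch3, Jag2, Dll1, Dll4, Hey1 and Heyl, whose dark readings have no order. The primary group is 1 array, and 129S1-No2 has 1 array per medium.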
